A study of Mus musculus with 120 samples.

Results

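Constant darkness was compared with constant light in the colon contents of antibiotics-treated mice, using 12 of the 120 libraries of a 16S rRNA gene survey. The 12 libraries were chosen by their labels, 6 from mice kept at 0 h of light per day (LD0/24) and 6 from mice kept at 24 h of light per day (LD24/0). The survey sequenced the bacterial 16S gene from colon and cecum contents of mice on chow or on chow with antibiotics, under 5 light cycles. All mice were C57BL/6N, entered at 10 weeks of age and were acclimatised for 7 days, and the light cycles then ran for 42 days. Both groups received the same irradiated feed and a cocktail of broad-spectrum antibiotics in the drinking water, with components that the labels do not list. Per the design text, 24 mice entered each group and each mouse had a cage of its own. The labels do not say which mouse gave which library, and the p-values below treat the 6 libraries of a group as independent samples. Neither group is a model of an untreated colon, since both were on antibiotics throughout.

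The community that outlives broad-spectrum antibiotics in the gut is usually poor in obligate anaerobes and rich in bacteria that tolerate oxygen and the drugs given. Enterobacterales, the order of Klebsiella and Escherichia, are facultative anaerobes that bloom when their competitors are lost. Enterococci are Gram-positive facultative anaerobes that make lactic acid, and several species carry intrinsic resistance to common drugs. Bacteroidales, among them Bacteroides and Parabacteroides, are strict anaerobes that degrade plant and host polysaccharides. All values below are shares of a library's 16S counts, so a higher share of one genus, a lower share of the others, more cells and more 16S copies per cell cannot be told apart.

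Total counts were 55223 to 61738 in LD0/24 and 59487 to 68599 in LD24/0. Of the 13844 sequence variants in the survey, 880 had a count in the 12 libraries. A variant is 1 distinct 16S sequence; its genus name is the one the authors gave it. The antibiotics label was checked with unclassified Muribaculaceae, from a leading family of the mouse colon, which held 0.223 to 0.495% of counts in LD0/24 and 0.216 to 0.397% in LD24/0, against 3.28 to 26.9% and 6.23 to 30.9% in the colon on chow at the same light cycles.

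The 12 libraries fell into 2 sets by their even, low-level variants, and the sets were not balanced between the light cycles. These 148 variants stayed under 2% in all 120 libraries, varied little among the libraries that held them, and summed to 3.91 to 6.29% of counts. A set of 8 libraries held all 6 of LD24/0 with replicates 1 and 2 of LD0/24, and 11 of the variants were in every library of it and in none of the other 4. The set of 4 libraries held replicates 3 to 6 of LD0/24, and 7 variants were in all of these and in none of the 8. Variants of Erwinia, Pantoea, Enterobacter and Bacteroides are among the 11, and variants of Rothia, Arsenophonus and Lactobacillus among the 7. The sets were thus in part defined by these genera. Those of Pantoea, Bacteroides and Lactobacillus were minor, with means of 0.0823, 0.0139 and 0.0143% in the set that held them. The labels name no batch. Results are therefore also given with the set as a block in the fit, or within the set of 8 libraries, where 2 libraries of LD0/24 face 6 of LD24/0. The set of 4 held no library of LD24/0. A fold change with the set as a block therefore rests on the same 2 and 6 libraries. A smaller p there is not a check by all 12 libraries.

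The colon community under constant light was marked by Enterococcus, which was a trace genus in every library of constant darkness. Klebsiella and Pantoea, both of the order Enterobacterales, were called lower under constant light. Each of these calls held in only 4 of 21 alternatives and was lost with the library set as a block (edgeR adjusted p = 0.155 for both). Parabacteroides had a higher median share under constant light without passing the test. Klebsiella, Bacteroides, Parabacteroides, Enterococcus and Pantoea together held 77.4 to 92.5% of counts in each library. Of 144 genera tested, edgeR's quasi-likelihood test called 9 (6.25%) at an adjusted p below 0.05, of which 1 was higher (0.694%) and 8 were lower (5.56%) in LD24/0. The median log2 fold change over all 144 genera was -0.20, and 53 genera lay above 0 and 89 below it. The split of higher to lower calls depended on the scaling: it was 1 to 8 here, 1 to 3 with composition factors, and 8 to 11 on centred log-ratios, where the median of all genera was -0.03.

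**Figure D1:**
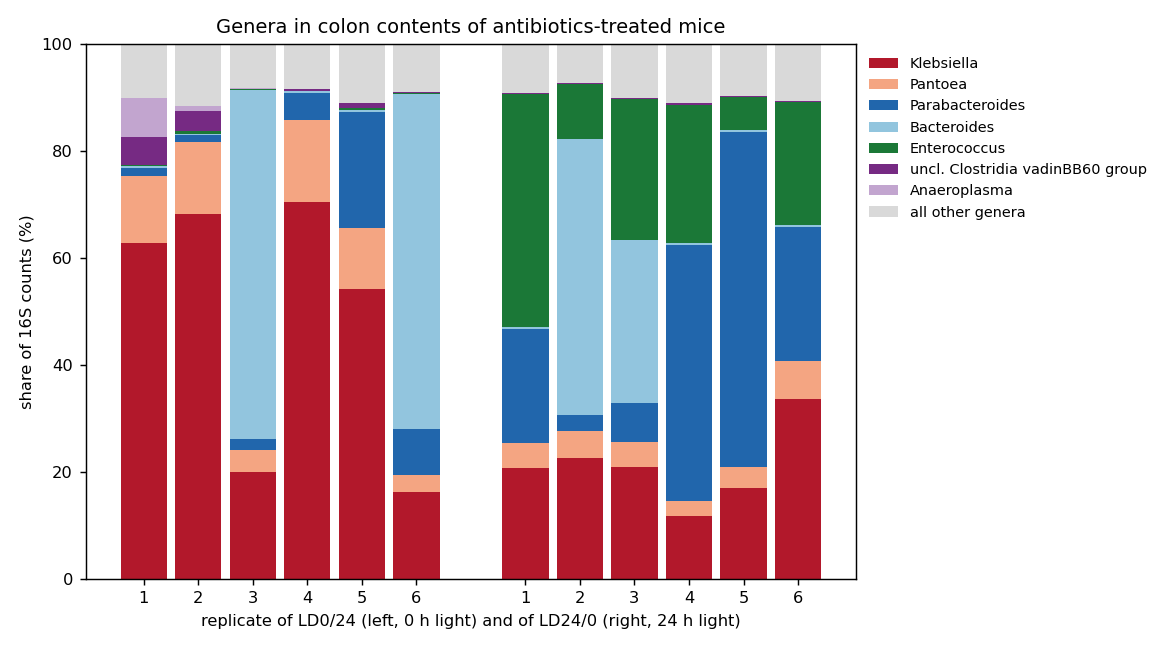
Stacked bars give the percent of 16S counts (y axis, 0 to 100) held by 7 genera and by all other genera in each library, with LD0/24 replicates 1 to 6 on the left and LD24/0 replicates 1 to 6 on the right. Klebsiella held 54.3 to 70.5% in 4 of the 6 libraries of LD0/24, Bacteroides held 62.7 and 65.3% in the other 2, and Enterococcus held 6.17 to 43.5% in all 6 libraries of LD24/0.

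Enterococcus rose under constant light. Its share was 0.135, 0.245 and 0.395% (lowest, median, highest) in LD0/24 and 6.17, 24.3 and 43.5% in LD24/0. Every library of LD24/0 lay above every library of LD0/24. Groups without overlap, in either direction, were seen for 2 of the 144 genera tested (1.39%), Enterococcus and Lactobacillus. The log2 fold change was 6.52 ± 1.63 (SE, n = 6 and 6; edgeR adjusted p = 0.0249), and all 6 libraries of LD24/0 were above the LD0/24 mean. With the library set as a block it was 6.08 ± 0.90 (edgeR adjusted p = 0.000721), a value that rests on 2 libraries of LD0/24 and 6 of LD24/0. Over the 21 alternatives run, the log2 fold change ranged from 6.08 to 6.71 and the adjusted p from 1.55e-07 to 0.0577. The call was lost without a filter on low counts (0.0570), with the even low-level variants removed (0.0518) and without LD0/24 replicate 1 (0.0577), with log2 fold changes of 6.52, 6.52 and 6.55. The list of enterococci and staphylococci has 3 genus names, of which 1, Enterococcus, had enough counts to be tested; its summed share was that of Enterococcus alone, 0.246 ± 0.0967% and 22.5 ± 13.3% (SD, n = 6 each; exact two-sided permutation p = 0.00216, the smallest possible, adjusted p = 0.0195 over 9 lists).

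Under constant light a pair of sequence variants in a near-constant ratio led the Enterococcus counts. The leading variant, named Enterococcus gallinarum by the authors, held 0.196 ± 0.0531% of counts in LD0/24 and 18.1 ± 10.6% in LD24/0 (SD, n = 6 each). It was higher in LD24/0 with a log2 fold change of 6.53 ± 1.54 (edgeR adjusted p = 0.0248), one of 5 variants called among 306 tested (1.63%; 2 higher, 0.654%, and 3 lower, 0.98%). E. gallinarum is known for intrinsic low-level resistance to vancomycin; the labels do not say whether the cocktail held vancomycin. The second variant stood at 21.8 to 25.0% of the first in the 6 libraries of LD24/0. In LD0/24 it had no count in replicates 1, 4 and 6 and stood at 23.9 to 28.8% of the first in the others; the genus had 75 to 218 counts in a library there, of which the leading variant held 63.8 to 100%. Relative to Klebsiella, the Enterococcus count was 0.00192 to 0.0110 in LD0/24 and 0.362 to 2.19 in LD24/0, with no overlap.

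In the 3 other light cycles the share of Enterococcus ran from 0.0761 to 22.6%, with libraries inside the range of either group, between the ranges and below both. The median share of Enterococcus was 0.204% at 8 h of light (n = 5), 0.731% at 12 h (n = 6) and 5.13% at 16 h (n = 6). At least 1% of counts was reached by 0 of 6 libraries at 0 h, 1 of 5 at 8 h, 2 of 6 at 12 h, 4 of 6 at 16 h and 6 of 6 at 24 h. These counts are a description, and no test of an order over light hours was run.

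**Figure D2:**
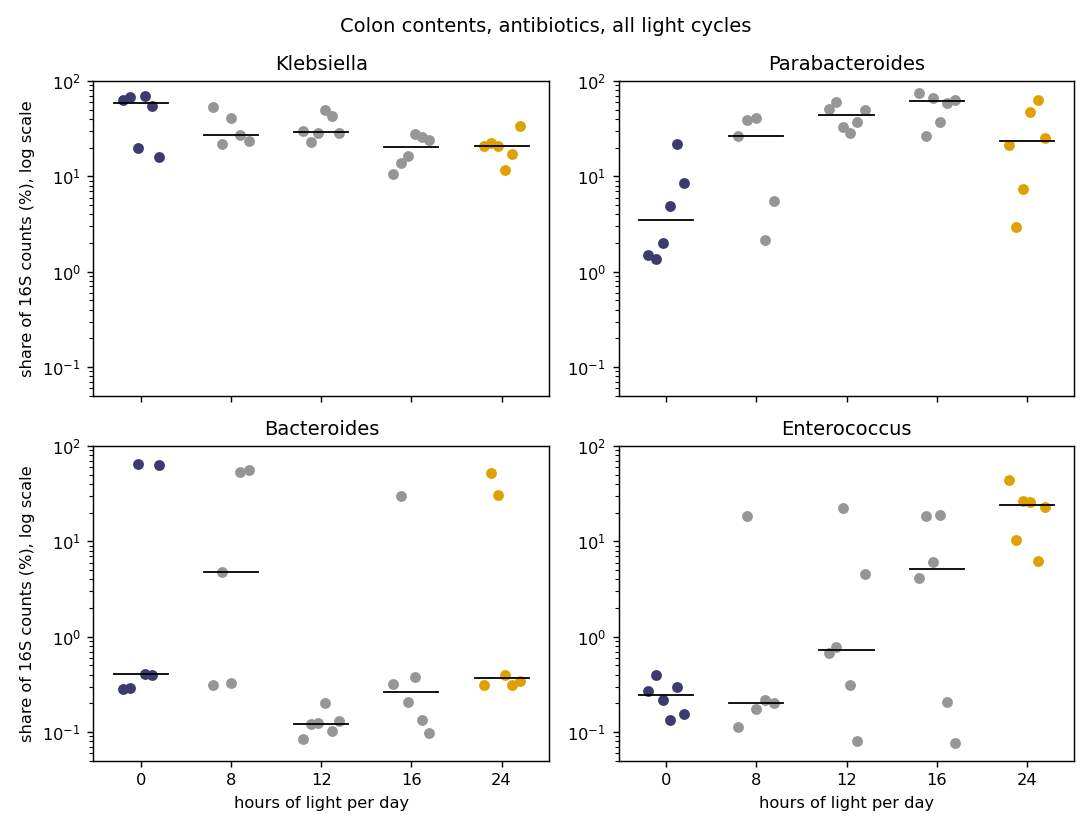
Each point is the percent of 16S counts (log scale) of 1 colon library with antibiotics, by hours of light per day (light cycles evenly spaced, not to scale), for Klebsiella, Parabacteroides, Bacteroides and Enterococcus; lines are medians, dark points LD0/24, yellow points LD24/0, grey points the other light cycles. Enterococcus lay between 0.135 and 0.395% in all 6 libraries at 0 h and between 6.17 and 43.5% in all 6 at 24 h, while Bacteroides held either 0.281 to 0.410% or 30.4 to 65.3% in both of these groups.

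Klebsiella, a facultative anaerobe and a common opportunist, fell under constant light. Its share was 16.2, 58.5 and 70.5% (lowest, median, highest) in LD0/24 and 11.7, 20.8 and 33.7% in LD24/0. The groups overlapped through LD0/24 replicates 3 and 6, at 20.0 and 16.2%, the libraries in which Bacteroides held most counts; the other 4 of LD0/24 lay above all of LD24/0. This was a log2 fold change of -1.21 ± 0.35 (SE, n = 6 and 6; edgeR adjusted p = 0.0439), and no library of LD24/0 was above the LD0/24 mean. With the library set as a block it was -1.64 ± 0.56 (edgeR adjusted p = 0.155). The direction held under all 21 alternatives, with log2 fold changes of -1.64 to -0.90, but the adjusted p, from 0.0131 to 0.483, passed in 4 of them. It was lost on leaving out any library but LD0/24 replicates 3 and 6 and LD24/0 replicate 6.

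Nearly all Klebsiella counts belonged to a single variant, named Klebsiella aerogenes by the authors, which held 97.5 to 99.9% of the genus in LD0/24 and 97.0 to 99.0% in LD24/0. By itself this variant gave a log2 fold change of -1.22 ± 0.37 (edgeR adjusted p = 0.0849 over variants). When counts of Bacteroides were left out of the total, a choice made after the data were seen, Klebsiella held 59.6 ± 10.1% in LD0/24 and 26.7 ± 12.7% in LD24/0 (SD, n = 6 each). The values ran from 43.3 to 70.8% and from 11.8 to 46.7%, and overlapped through LD0/24 replicate 6 and LD24/0 replicate 2. Enterococcus, at 0.135 to 0.395% of all counts in LD0/24 and 6.17 to 43.5% in LD24/0, stayed in this total. The share of Klebsiella outside Bacteroides thus still depends on that of Enterococcus. The difference of -32.9 percentage points had an exact two-sided permutation p of 0.00433 (adjusted p = 0.0173 over 6 single measures), and within the set of 8 libraries it was -39.1 (exact p = 0.0357, the smallest that 2 against 6 libraries can give).

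Pantoea, a relative of Klebsiella best known from plants, fell as well. Its share was 3.31, 11.9 and 15.4% (lowest, median, highest) in LD0/24 and 2.87, 4.63 and 7.07% in LD24/0. The low libraries of LD0/24 were again replicates 3 and 6. The genus fell by 1.09 ± 0.34 on the log2 scale (edgeR adjusted p = 0.0494), with 0 of 6 libraries of LD24/0 above the LD0/24 mean; with the library set as a block it was -1.47 ± 0.51 (adjusted p = 0.155). The call held in 4 of 21 alternatives, whose adjusted p ran from 0.0131 to 0.434. The call was lost on leaving out any library but LD0/24 replicates 3 and 6 and LD24/0 replicate 6, and the direction did not turn in any alternative. Klebsiella counts were 4.59 to 5.12 times those of Pantoea in LD0/24 and 4.08 to 4.77 times in LD24/0, a near-constant ratio over a range of shares. Across all 10 antibiotics groups of colon and cecum the ratio stayed between 4.08 and 5.17.

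Of the order Enterobacterales, 11 genera were tested, of which 3 were called lower (Klebsiella, Pantoea and Arsenophonus) and none higher, beside 5.56% of all genera lower and 0.694% higher. These 3 calls are not separate evidence, since Klebsiella and Pantoea kept a near-constant ratio. Arsenophonus had 48 counts in LD0/24, all in the smaller library set that it helped to define. The median log2 fold change of the 11 genera was -0.15, beside -0.20 over all genera. With the library set as a block 5 of 104 genera were called (4.81%; 2 higher, 1.92%, and 3 lower, 2.88%), Klebsiella and Pantoea were not among them, and Serratia, a genus of the order named after its values were seen, was called higher (edgeR adjusted p = 0.000453). Serratia had no count in LD0/24 replicates 1 and 2, the only LD0/24 libraries in the set of 8, and 0.0959 to 0.233% in the other 4; without the block its log2 fold change was 0.71 ± 1.25 (adjusted p = 0.933). Enterobacter, at 1.01 ± 0.241% (SD, n = 6) and 0.864 ± 0.191% (SD, n = 6), had a log2 fold change of -0.22 ± 0.24 (edgeR adjusted p = 0.829). Erwinia, whose variants helped to define the library sets, held 0.319 to 0.410% in every library of the set of 8 and had no count in the other 4. Escherichia-Shigella, with no variant among those that defined the sets, held 0.383 to 0.773% in the 8 against 0.0233 to 0.0565% in the 4. Summed over the order, the share was 60.3 ± 29.6% in LD0/24 and 28.0 ± 8.77% in LD24/0 (SD, n = 6 each), with overlapping groups (20.7 to 86.8% and 16.7 to 43.2%). This difference of -32.2 percentage points did not pass after adjustment over the 9 taxon lists (exact two-sided permutation p = 0.0476, adjusted p = 0.143).

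Parabacteroides, a strict anaerobe of the order Bacteroidales, held more of the counts in most libraries of constant light without passing the test. Its share was 1.35, 3.45 and 21.7% (lowest, median, highest) in LD0/24 and 2.94, 23.3 and 62.7% in LD24/0. The groups overlapped: LD0/24 replicate 5, at 21.7%, lay above 3 libraries of LD24/0, and LD24/0 replicate 2, at 2.94%, lay below 3 libraries of LD0/24. The log2 fold change was 2.07 ± 0.72 (edgeR adjusted p = 0.0672), and with the library set as a block 4.30 ± 1.33 (adjusted p = 0.127). DESeq2 gave 2.23 ± 0.69 (adjusted p = 0.0157), and without LD0/24 replicate 5 edgeR gave 2.93 (adjusted p = 0.0201); the other 19 of 21 alternatives did not pass, with adjusted p up to 0.227.

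Within a library the ratio of Parabacteroides to Klebsiella is not changed by the share of the total that other genera take, though it can vary along with them. On the log2 scale this ratio was -3.41 ± 1.99 in LD0/24 and -0.15 ± 1.93 in LD24/0 (SD, n = 6 each). The lowest value of LD0/24 was -5.66 and its highest -0.93, while LD24/0 ran from -2.94 to 2.03. The lowest ratios of LD24/0, -2.94 and -1.50, were in replicates 2 and 3, where Bacteroides held 51.6 and 30.4% of counts. In LD0/24 the Bacteroides-rich replicates 3 and 6 stood at -3.33 and -0.93, and the others ran from -5.66 to -1.32. The part of Bacteroides in the ratio was not tested. The difference of 3.26 passed the exact two-sided permutation test (p = 0.0195, adjusted p = 0.0292 over 6 single measures), and was 5.38 within the set of 8 libraries (exact p = 0.0357, the smallest possible there).

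Parabacteroides was carried by several variants at once: 22 had a count in the 12 libraries, and the 5 most abundant were present in every library. Ranked by counts summed over the 12 libraries, the leading variant held 32.2 ± 2.05% of the genus in LD0/24 and 33.2 ± 1.98% in LD24/0 (SD, n = 6 each). Next came a variant at 24.8 ± 1.20% and 23.5 ± 1.15%, then variant v4 at 15.1 ± 1.47% and 15.1 ± 1.23% (SD, n = 6 each). The ranges of these 3 variants overlapped between the light cycles. Variant v3 made up 21.0 ± 4.81% of the genus in LD0/24 and 12.8 ± 0.880% in LD24/0 (SD, n = 6 each). Its lowest value in LD0/24, 15.0%, lay above its highest in LD24/0, 14.5%. Variant v5 made up 6.51 ± 4.47% and 12.5 ± 2.73% (SD, n = 6 each), with LD0/24 replicate 6, at 13.5%, inside the range of LD24/0. These within-genus shares were computed after the data were seen and are given with no test.

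**Figure D3:**
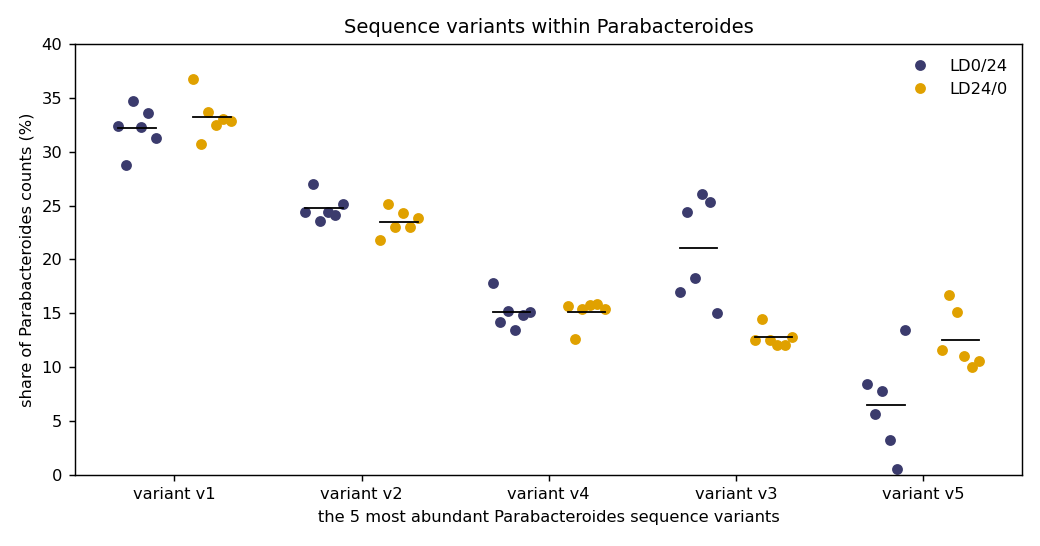
Points are the percent of a library's Parabacteroides counts (y axis) held by each of the 5 most abundant variants, dark for LD0/24 and yellow for LD24/0, and lines are group means (n = 6 each). Variant v3 lay at 15.0 to 26.1% in LD0/24 and at 12.1 to 14.5% in LD24/0, while v1, v2 and v4 overlapped.

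Bacteroides, a close relative with the same way of life, was dominant in some libraries of each light cycle and minor in the rest. In LD0/24 it held 65.3 and 62.7% of counts in replicates 3 and 6 and 0.281 to 0.410% in the other 4. In LD24/0 it held 51.6 and 30.4% in replicates 2 and 3 and 0.310 to 0.398% in the other 4. Thus 2 of 6 libraries of each group were rich in Bacteroides. Its log2 fold change was -0.63 ± 1.70 (edgeR adjusted p = 0.976); its sign turned with the library set as a block (5.61), where neither LD0/24 library of the set was rich in Bacteroides, and without LD0/24 replicate 3 (0.12) or 6 (0.06). A single variant held 94.6 to 99.1% of the genus in LD0/24 and 80.4 to 99.8% in LD24/0.

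Of the order Bacteroidales, 9 genera were tested and none passed; 2 lay above 0 and 7 below, with a median log2 fold change of -0.24. The order's summed share was 28.7 ± 32.6% in LD0/24 and 42.2 ± 16.4% in LD24/0 (SD, n = 6 each) (exact two-sided permutation p = 0.379, adjusted p = 0.487). Unclassified Muribaculaceae held 0.371 ± 0.102% and 0.309 ± 0.0673% (SD, n = 6 each), with a log2 fold change of -0.26 ± 0.29 (edgeR adjusted p = 0.827).

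The unclassified Clostridia vadinBB60 group and Anaeroplasma fell under constant light, and both calls rested on few libraries of constant darkness. The vadinBB60 group, an uncultured lineage of anaerobic Clostridia, held 0.0696, 0.660 and 5.21% (lowest, median, highest) in LD0/24 and 0.116, 0.181 and 0.456% in LD24/0. LD0/24 replicates 1, 2 and 5, at 5.21, 3.86 and 1.03%, lay above all of LD24/0, and the other 3 lay at 0.0696 to 0.292%. Between the groups the log2 fold change was -2.93 ± 0.86 (edgeR adjusted p = 0.0490), and with the library set as a block -4.29 ± 0.73 (adjusted p = 0.00187). The block value rests on LD0/24 replicates 1 and 2, the 2 highest libraries, against those of LD24/0. The call held in 6 of 21 alternatives, whose adjusted p ran from 0.00187 to 0.758, and it was lost without LD0/24 replicate 1, 2 or 5 and without any 1 library of LD24/0. Its counts were spread over 62 variants.

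Anaeroplasma, a wall-less Mollicute of the gut and a strict anaerobe, held 7.24% of counts in LD0/24 replicate 1 and 0.898% in replicate 2. The other 4 libraries of LD0/24 lay at 0.00685 to 0.0316% and the 6 of LD24/0 at 0.00746 to 0.0262%. The log2 fold change of -6.39 ± 1.73 (edgeR adjusted p = 0.0400) thus rested on replicates 1 and 2: the medians were 0.0223 and 0.0165%. Both of these libraries are in the set of 8, where the set block gave -7.96 ± 0.72 (adjusted p = 1.19e-05), and leaving out replicate 1 gave -3.55 with the call lost. The adjusted p of the 21 alternatives ran from 1.19e-05 to 0.893, and 9 passed; the call was also lost on leaving out any 1 library of LD24/0.

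Pediococcus, a lactic acid bacterium common on plants and in feed, was lower in LD24/0 but followed the library sets, and 1 of its variants is among the 148 even low-level ones. Its share was 0.132, 0.352 and 0.457% (lowest, median, highest) in LD0/24 and 0.123, 0.155 and 0.170% in LD24/0. The LD0/24 libraries in the set of 8, replicates 1 and 2, held 0.186 and 0.132%, at the level of LD24/0, and the other 4 held 0.341 to 0.457%. The log2 fold change of -1.03 ± 0.23 (edgeR adjusted p = 0.00655) became -0.07 ± 0.22 with the library set as a block (adjusted p = 0.978, the highest of 21 alternatives, of which the lowest was 0.000269). Among the 9 called genera, Rothia, Arsenophonus and Hydrogenophaga were below the share set for naming and were named after their values were seen. Rothia, best known from the mouth, had 257 counts in LD0/24, 4 of them in replicate 2 and the rest in the 4 libraries of the smaller set, and none in LD24/0. Against a floor of 3 counts over the group it was at least 94.3-fold lower in LD24/0 (edgeR adjusted p = 0.00266), and with the set as a block the adjusted p was 0.155, a value that the part of Rothia in defining the sets bears on. Arsenophonus, known as an insect symbiont and likewise used to define the sets, had counts in the smaller set alone and was at least 17.6-fold lower (adjusted p = 0.0490). Hydrogenophaga, a water bacterium, had at most 8 counts in a library and was at least 9.17-fold lower (adjusted p = 0.0494).

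**Figure D4:**
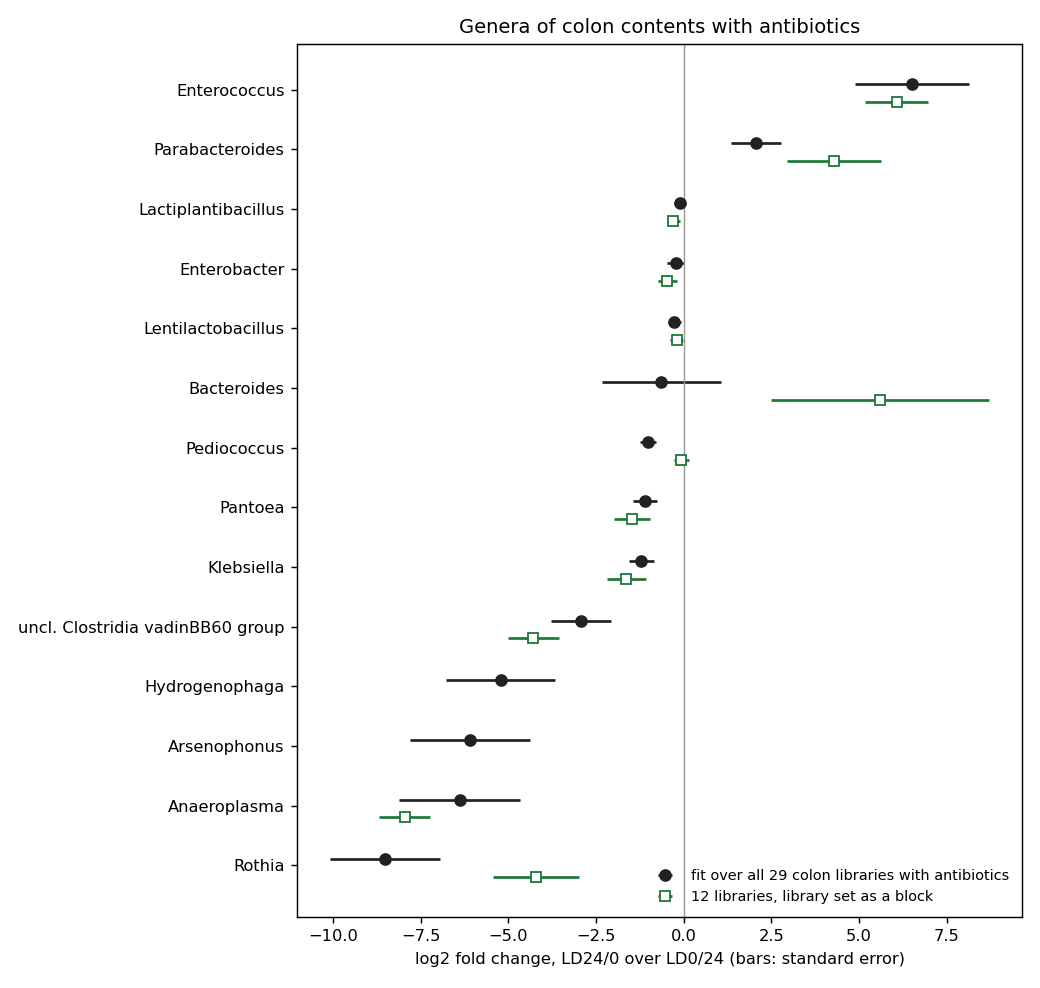
Points are log2 fold changes of LD24/0 over LD0/24 (x axis) with standard errors, black circles for the fit over all 29 colon libraries with antibiotics and open squares for the 12 libraries with the library set as a block; Arsenophonus and Hydrogenophaga have no square because they were below the filter there. The squares rest on the 2 libraries of LD0/24 and the 6 of LD24/0 in the larger set, since the smaller set held none of LD24/0. Enterococcus kept its place at 6.52 and 6.08, Pediococcus moved from -1.03 to -0.07, and Bacteroides moved from -0.63 to 5.61. Rothia, Arsenophonus and Hydrogenophaga had no count in LD24/0, so that their fitted values depend on the prior count.

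The 14 genera of lactic acid bacteria and bifidobacteria, fermenters that include the lactobacilli of the mouse gut, gave 1 call, lower (Pediococcus), beside 5.56% of all genera called lower, with 3 genera above 0 and 11 below and a median log2 fold change of -0.22. Their summed share was 4.07 ± 0.273% in LD0/24 and 3.52 ± 0.451% in LD24/0 (SD, n = 6 each) (exact two-sided permutation p = 0.0108, adjusted p = 0.0487). This difference of -0.56 percentage points was -0.65 within the set of 8 libraries (exact p = 0.143), where 2 against 6 libraries can give no p below 0.0357. With the even low-level variants removed it was -0.22 and no longer passed (adjusted p = 0.203). It was also lost on leaving out any library but LD0/24 replicates 3 and 4 and LD24/0 replicate 4. Lactiplantibacillus, the largest of them, held 1.26 ± 0.179% and 1.17 ± 0.149% (SD, n = 6 each; edgeR log2 fold change -0.11 ± 0.17, adjusted p = 0.918), and its sign turned with DESeq2 (0.02) and on centred log-ratios (0.05). Lentilactobacillus held 0.691 ± 0.0867% and 0.577 ± 0.0878% (SD, n = 6 each; edgeR log2 fold change -0.26 ± 0.18, adjusted p = 0.565). Lactobacillus itself held 0.145, 0.230 and 0.450% (lowest, median, highest) in LD0/24 and 0.0353, 0.118 and 0.143% in LD24/0, with no overlap between the groups. The gap was narrow: the lowest of LD0/24 had 87 counts (replicate 6) and the highest of LD24/0 had 85 (replicate 3). The log2 fold change of Lactobacillus, -1.33 ± 0.43, missed the threshold (edgeR adjusted p = 0.0565). With the library set as a block it was -1.93 ± 0.39 (edgeR adjusted p = 0.00663). The block value rests on LD0/24 replicates 1 and 2, the highest libraries at 0.450 and 0.340%. The other libraries of LD0/24 held 0.145 to 0.238%, and a Lactobacillus variant helped to define the sets.

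Of 17 genera of Lachnospirales and 16 of Oscillospirales tested, orders that hold the butyrate producers of the gut, none passed, with median log2 fold changes of -0.57 and -0.20. Variants filed under the order name Lachnospirales held 0.352 ± 0.114% and 0.284 ± 0.133% of counts, and under Oscillospirales 0.186 ± 0.0543% and 0.207 ± 0.0516% (SD, n = 6 each). These sums leave out variants that the authors' taxonomy files under other order names. The family Lachnospiraceae alone held 0.431 and 0.329% in LD0/24 and LD24/0, and Ruminococcaceae 0.215 and 0.166%. The exact permutation p of the 2 orders' summed shares was 0.359 and 0.506, each with n = 6 and 6. Of the 3 genera of Erysipelotrichales, the 2 mucus-layer genera (such as Akkermansia, a mucin degrader) and the 3 sulfate reducers tested, none passed, with median log2 fold changes of -0.38, 0.44 and 0.96. Their summed shares were 0.0278 ± 0.0193% and 0.0250 ± 0.0206%, 0.0244 ± 0.0131% and 0.0329 ± 0.00795%, and 0.113 ± 0.0314% and 0.203 ± 0.185% in LD0/24 and LD24/0 (SD, n = 6 each; exact permutation p of 0.803, 0.206 and 0.227). Desulfovibrio, a sulfate reducer, held 0.0741 ± 0.0231% in LD0/24 and 0.174 ± 0.190% in LD24/0 (SD, n = 6 each), of which LD24/0 replicate 4 held 0.557% (edgeR log2 fold change 1.23 ± 0.48, adjusted p = 0.120).

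At the family rank 5 of 76 were called (6.58%; 1 higher, 1.32%, and 4 lower, 5.26%). Enterococcaceae rose with a log2 fold change of 6.52 ± 1.63 (edgeR adjusted p = 0.0196). Acholeplasmataceae, the family of Anaeroplasma here, fell by 6.39 ± 1.73 on the log2 scale (adjusted p = 0.0286), and the vadinBB60 family fell by 2.93 ± 0.84 (adjusted p = 0.0295). The other calls were Micrococcaceae and Morganellaceae, the families of Rothia and Arsenophonus, both below the share set for naming. Enterobacteriaceae, at 50.0 ± 24.6% and 22.8 ± 7.35% (SD, n = 6 each), had a log2 fold change of -1.13 ± 0.37 (adjusted p = 0.0549), and Tannerellaceae, the family of Parabacteroides, 2.07 ± 0.70 (adjusted p = 0.0575).

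The communities as wholes differed between darkness and light. Darkness against light took up 32.0% of the variation between libraries, by Bray-Curtis distances of their variants (exact permutation p = 0.00866, adjusted p = 0.0173 over 6 single measures), and 51.3% within the set of 8 libraries (exact p = 0.0357, the smallest possible there). Over 5 alternative settings, among them that set and other distances, the share ran from 13.9 to 51.3% (exact p from 0.00216 to 0.0357, not adjusted). The median Bray-Curtis distance was 0.652 between the groups, 0.657 within LD0/24 and 0.408 within LD24/0, so libraries of darkness lay as far from each other as from those of light. For 11 of 12 libraries the nearest other library was of the same light cycle. The exception was LD24/0 replicate 2, nearest to LD0/24 replicate 3 at a distance of 0.180, and both were rich in Bacteroides. Distances to the group centroid were 0.325 ± 0.104 in LD0/24 and 0.276 ± 0.0815 in LD24/0 (SD, n = 6 each) (exact p = 0.381).

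The Shannon index, which rises with the number and evenness of variants, was 1.70 ± 0.243 in LD0/24 and 2.45 ± 0.360 in LD24/0 (SD, n = 6 each). The difference of 0.742 passed (exact two-sided permutation p = 0.00649, adjusted p = 0.0173), with 5 of 6 libraries of LD24/0 above the highest of LD0/24. Within the set of 8 libraries it was 0.682 (exact p = 0.0714). Over 4 alternative settings, among them that set and genera in place of variants, it ran from 0.295 to 0.765. Their exact p ran from 0.00433 to 0.0714, without adjustment. The number of variants expected at 39157 counts was 217 ± 38.4 (SD, n = 6) and 207 ± 19.1 (SD, n = 6), a difference within the spread (exact p = 0.632). In LD0/24 the leading genus held 54.3 to 70.5% of each library, and in LD24/0 30.4 to 62.7%.

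The light response of Enterococcus differed from that of the colon on chow. On chow the genus held 0.186 ± 0.108% in LD0/24 and 0.0722 ± 0.0558% in LD24/0 (SD, n = 6 each), a log2 fold change of -1.36 ± 0.95 (edgeR adjusted p = 0.433). The difference between the responses was 7.88 ± 1.49 on the log2 scale (edgeR interaction term, adjusted p = 0.000403), among 8 of 258 genera called (3.1%; 4 higher, 1.55%, and 4 lower, 1.55%). The interaction was not called for Parabacteroides (2.35 ± 0.80, adjusted p = 0.104), Klebsiella (-0.94 ± 0.69, adjusted p = 0.754), Pantoea (-1.06 ± 0.74, adjusted p = 0.718) or Bacteroides (-0.66 ± 1.60, adjusted p = 1.00).

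In the cecum with antibiotics the same genera started from another community, in which Parabacteroides held 70.2 ± 9.58% and 52.1 ± 32.8% (SD, n = 6 each) in darkness and light. Enterococcus held 0.325 ± 0.174% there in LD0/24 and 2.13 ± 1.71% in LD24/0 (SD, n = 6 each). This log2 fold change of 2.71 ± 1.15 did not pass (edgeR adjusted p = 0.133). The light response of Enterococcus was not called different between colon and cecum, with an interaction of 3.80 ± 1.58 (edgeR adjusted p = 0.197), among 215 genera of which 9 were called (4.19%; 8 higher, 3.72%, and 1 lower, 0.465%). Nor was it for Parabacteroides (2.50 ± 0.86, adjusted p = 0.0777), Klebsiella (-1.15 ± 0.61, adjusted p = 0.351) or Bacteroides (-7.59 ± 2.42, adjusted p = 0.0578), which was rich in 2 of 6 cecum libraries in LD24/0 and none in LD0/24. The labels tie no colon library to a cecum library of the same mouse, so the fit treated them as independent.

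**Figure D5:**
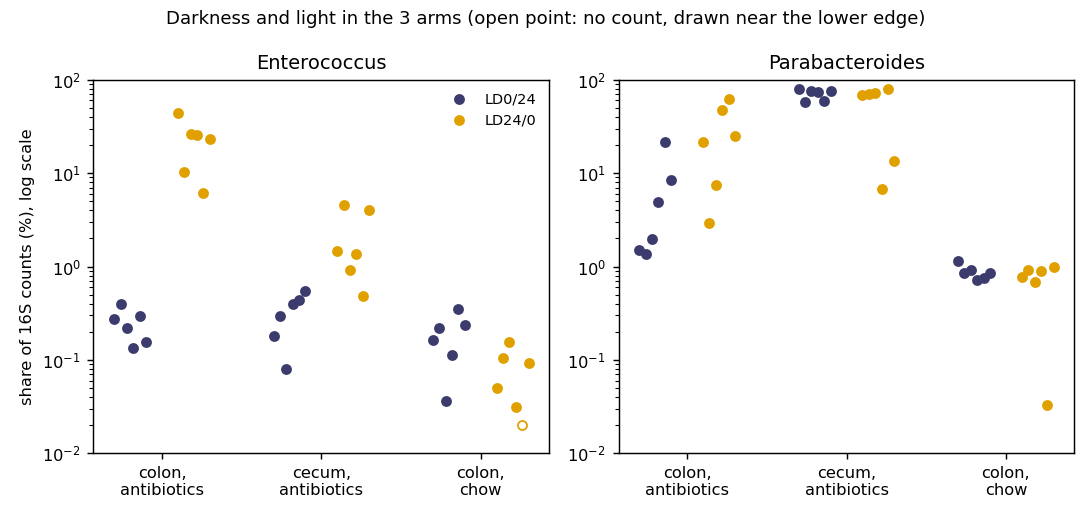
Points are the percent of 16S counts (log scale) of Enterococcus (left) and Parabacteroides (right) per library at LD0/24 (dark) and LD24/0 (yellow) in the colon with antibiotics, the cecum with antibiotics and the colon on chow (n = 6 libraries each; an open point had no count). Enterococcus under constant light lay at 6.17 to 43.5% in the colon with antibiotics, 0.489 to 4.55% in the cecum with antibiotics and 0 to 0.154% in the colon on chow.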

How the data were processed

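Bacterial 16S amplicons were sequenced on a long-read PacBio platform from stool-kit DNA, per the labels' protocols, which name rumen digesta as the source while the sample fields name colon content of mice. The authors deposited raw counts per sequence variant and their own taxonomy; not given in the sources used here are the denoiser, primers, filters and database. The counts were checked to be whole numbers with a different total in each library, and no 2 libraries of a group agreed within sampling noise. No read of the 12 libraries lacked a taxon name.

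Counts were summed by genus and family and tested with edgeR 4.0.16 (R 4.3.3), quasi-likelihood with robust spread, library sizes set to the total count, without composition factors. The fit took all 29 colon libraries with antibiotics, with features of at least 3 counts in at least 5 libraries, and Benjamini-Hochberg adjustment over all features (threshold 0.05). Interactions were fitted over all colon libraries and over all antibiotics libraries. Single values were compared by exact two-sided permutation over all 924 splits of 12 libraries, whose smallest p is 0.00216. The fits were also run on counts simulated independently for each genus, family or variant. Those counts had neither a fixed total nor library sets, so that run cannot judge the effect of either.

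Named genera were the 10 with the highest mean share and the called genera that reached a mean of 0.1% in either group, and members of the taxon lists that reached this share; others are said to be chosen after their values were seen. The libraries compared, the 9 taxon lists and the tests were chosen with earlier results of these data known. Alternatives were TMMwsp composition factors, DESeq2 1.42.0, limma 3.58.1 on centred log-ratios, other filters, the 12 libraries alone, a replicate block, the library set as a block, removal of the even low-level variants, other distances and offsets, and leaving out each library in turn. Even low-level variants had at least 5 counts in at least 4 of the colon libraries with antibiotics and a coefficient of variation under 0.4 among them; limits of 0.3 and 0.5 gave the same sets. The sets and the tests within the set of 8 libraries were added after the data were seen.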

Additional observations from a re-analysis of the deposited data

Results flagged for a closer look

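In 4 of 34 groups of 6 libraries examined, the end value stood apart from the others; chance flags about 1 in 20 such groups. Parabacteroides in LD0/24 replicate 5 held 21.7% of counts, with the next library at 8.50%. Anaeroplasma in LD0/24 replicate 1 held 7.24%, with the next at 0.898%. Lentilactobacillus, a lactic acid bacterium, held 0.859% in LD0/24 replicate 5, with the next at 0.685%, and 0.406% in LD24/0 replicate 2, with the next at 0.562%.

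The response to light differed by diet in the colon for Enterococcus, by 7.88 ± 1.49 on the log2 scale (edgeR adjusted p = 0.000403), higher with antibiotics. Corynebacterium differed by 7.02 ± 1.69 (edgeR adjusted p = 0.00904), but with antibiotics its mean shares were 0.000604 and 0.00320%, and on chow they were 0.344% in LD0/24 and 0.0112% in LD24/0. Negativibacillus differed by -6.12 ± 1.75 (edgeR adjusted p = 0.0330), with means of 0.00546 and 0% with antibiotics and 0.0573 and 0.143% on chow.

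The response to light differed by site with antibiotics for 4 low-level genera of at least 0.1% in a group. Weissella differed by 7.78 ± 1.08 (edgeR adjusted p = 1.78e-07), Lactiplantibacillus by 4.34 ± 0.89 (0.00052), Escherichia by 7.59 ± 1.55 (0.000771) and unclassified Mitochondria, a name for organelle sequences, by 3.95 ± 1.17 (0.0361). In the colon their mean shares were 0.233 and 0.291%, 1.26 and 1.17%, 0.120 and 0.237%, and 0.224 and 0.195% in LD0/24 and LD24/0. In the cecum 3 of them had no count in LD24/0 and Lactiplantibacillus held 0.00282%, against 0.0341% (Weissella), 0.0652% (Lactiplantibacillus), 0.0188% (Escherichia) and 0.00326% (Mitochondria) in LD0/24. The part of library sets in these differences was not tested.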

How the results depend on the processing

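The 9 genera called became 4 with TMMwsp factors (1 higher, 3 lower), 1 with no filter, 2 with the 12 libraries alone, 5 with the library set as a block (2 higher, 3 lower) and 19 on centred log-ratios (8 higher, 11 lower, 4 of them among the 9). With the even low-level variants removed edgeR called 0, with 19 genera at an unadjusted p below 0.05, while DESeq2 on all variants called 8. Leaving out 1 library gave 2 to 11 genera, 2 to 7 families and 2 to 10 variants. The genus count fell to 5 or fewer without any library but LD0/24 replicates 2, 3 and 6. The 5 families became 3 with the 12 libraries alone. The 5 variants became 20 with DESeq2 (8 higher, 12 lower), 16 with no filter, 8 at 10 counts in 6 libraries and 2 with the 12 libraries alone. On centred log-ratios the diet interaction gave 14 genera instead of 8 and the site interaction 31 instead of 9.

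Replicate numbers did not pair the libraries: same-numbered libraries of the 2 groups had correlations of -0.36 to 0.05 in their deviations, and 0 of 6 correlated best with its own number. With a replicate block 1 genus, 2 families and 1 variant were called, the enterococci sum was 22.3 (adjusted p = 0.281, exact sign flips) and the lactic acid sum -0.56 (adjusted p = 0.281). The 64 sign flips can give no unadjusted p below 0.03125, so a single list could not pass after adjustment over the 9 lists. Within the set of 8 libraries, where 2 against 6 can give no unadjusted p below 0.0357, the enterococci sum was 22.2 (exact permutation adjusted p = 0.321), the lactic acid sum -0.65 (0.321) and the Shannon difference 0.682 (0.0714, not adjusted). There too a single list could not pass after adjustment over the 9 lists. With the even low-level variants removed the lactic acid sum was -0.22 (0.203).

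Leaving out 1 library moved the enterococci sum over 18.1 to 25.5 percentage points, and its adjusted p reached 0.0584 without LD0/24 replicate 1, 2, 5 or 6. The lactic acid sum moved over -0.65 to -0.39. Signs turned for values that never passed: Oscillospirales with the even low-level variants removed (-0.0497) and within the set (-0.00526), Erysipelotrichales without LD0/24 replicate 2 or 3 or LD24/0 replicate 3 (0.000689 to 0.00218; lowest of all -0.00975), the number of variants without LD0/24 replicate 2 (3.36; lowest of all -18.2), Bacteroides (5.61, 0.12 and 0.06; leave-one-out -1.76 to 0.12) and Lactiplantibacillus (0.0217 with DESeq2 and 0.0454 on centred log-ratios). The causes were not tested. In the other results run over the leave-one-out alternatives, the exact permutation p was not adjusted over the 6 single measures. This unadjusted p stayed below 0.05 in each. Its highest value was 0.0433 for the Bray-Curtis share, 0.00649 for the Klebsiella share outside Bacteroides and 0.0411 for the Parabacteroides to Klebsiella ratio. At 55223 to 68599 counts a genus under 3 counts could not be measured.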

Other observations

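Some further names held low shares of the counts in both light cycles. Unclassified Chloroplast sequences, from plant matter, counted 288 to 346 reads in LD0/24 libraries and 250 to 380 in LD24/0 libraries. Ligilactobacillus, the leading genus of the colon on chow at 35.9 ± 25.0% (SD, n = 6) in LD0/24 there, held 0.611 ± 0.204% in LD0/24 and 0.561 ± 0.162% in LD24/0 with antibiotics (SD, n = 6 each), with a log2 fold change of -0.12 ± 0.30 (edgeR adjusted p = 0.976). Bifidobacterium, a saccharolytic anaerobe, held 0.338 ± 0.0501% and 0.308 ± 0.0258% (SD, n = 6 each; -0.13 ± 0.55, edgeR adjusted p = 0.979). Faecalibacterium, a butyrate producer, was at 0.0533 to 0.0740% in the 4 libraries of the smaller set and at 0 to 0.0145% in the 8 of the larger one, whatever their light cycle. Serratia, a relative of Klebsiella, had no count in LD0/24 replicates 1 and 2 and was at 0.0437 to 0.278% in the other 10 libraries. These 5 genera were chosen after their values were seen.

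Of the 5 variants called, 4 besides the leading Enterococcus variant were minor. A further Klebsiella variant (v4), also named Klebsiella aerogenes, had no count in LD0/24 and held 0.0189 ± 0.0262% in LD24/0 (SD, n = 6), with counts in 3 of 6 libraries above the LD0/24 mean, while the genus as a whole fell. Subdoligranulum v1, Weissella v3 and a Mitochondria variant had no count in LD24/0 and means of 0.0246, 0.00639 and 0.0265% in LD0/24, with 0 of 6 libraries of LD24/0 above those means. All counts of these 3 variants in the 12 libraries came from the 4 libraries of the smaller set, and they are among the even low-level variants.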
